A study of Mus musculus with 6 samples.

Results

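The histone genes of ETX-embryos were described here, as 55 genes of the replication-dependent histone clusters and 11 replacement variants. They were chosen by name alone, as every row whose symbol begins with Hist1h to Hist4h, H2af, H3f3, H1f0 to H1f9, H1fx or H2bf, and they make up 66 of the 12826 rows of the deposited table. Joined symbols that name 2 genes were left out, which removed 1 row. ETX-embryos are embryo-like assemblies of cultured mouse stem cells of 3 kinds, embryonic, trophoblast and extraembryonic endoderm. Those described here were grown untreated and included a line in which T/Brachyury reports as GFP. From each of 3 ETX-embryos, called A, B and C, the trophoblast compartment was removed and the embryonic compartment was cut lengthwise. The piece without GFP was labelled anterior and the piece with GFP posterior, and each piece gave 1 library, so there are 3 libraries per domain and 6 in all. The same reporter line was used for all 3 structures. No natural embryo was analysed here, and the endoderm layer was not described as removed from the pieces.

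A nucleosome wraps DNA around histones H2A, H2B, H3 and H4, and a linker histone, H1, binds where the DNA enters and leaves. Most histone protein of dividing cells comes from gene clusters that are transcribed in S phase, and the mRNAs of these genes lack introns and normally end in a conserved stem-loop instead of a poly(A) tail. Replacement variants such as H3.3, H2A.Z and macroH2A come from scattered genes whose mRNAs are spliced and polyadenylated, and they enter chromatin outside replication. The libraries were made with Smart-seq2, which copies RNA from its poly(A) tail, so the level of a cluster gene here refers to the RNA that the protocol could copy. In bulk pieces, fewer cells of a type and less RNA per cell cannot be told apart.

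The stem-loops are shown because they were found by sequence without reference to any level, though they do not separate the gene classes fully. They were searched in the transcripts of the mouse annotation GENCODE M21 (build GRCm38, which is mm10) as GGNNCTNNNNAGNNCC with 6-base arms that pair exactly, on the transcribed strand. A match was present in 36 of 55 cluster genes (65.5%), in 1 of 11 replacement variants and in 1.14% of all table rows found in that annotation. Of the 19 cluster genes without a match, 12 have gene models that stop at the stop codon and so hold no sequence after it. The arms are in capitals and the loop in lower case. The form of most matches in H1, H2A and H2B genes, 3 forms of H4 genes and that of H2afx read as follows.
Hist1h2ac, Hist1h2bg, Hist1h1c and others: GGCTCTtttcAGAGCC
Hist1h4d, Hist1h4m, Hist1h4f and 4 more H4 genes: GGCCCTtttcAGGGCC
Hist1h4j and Hist1h4b: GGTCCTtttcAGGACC
Hist1h4i and Hist2h4: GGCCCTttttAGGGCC
H2afx: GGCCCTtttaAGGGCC
The H4 forms differ from that of the other cluster classes in the middle of both arms, and 12 of 13 H4 genes held a match. H2afx, the damage-signalling H2A variant, is the replacement variant with a match, has the arms of the first H4 form, and its annotated transcript runs on for 822 bases after it. Of the 36 cluster genes with a match, the models of 17 end within 60 bases of it and those of 19 continue further. The median level over libraries was 1.54 log2(FPKM + 1) in the first group, 1.30 in the second and 3.35 in the 19 genes without a match. FPKM counts fragments per kilobase and per unit of mapped fragments, so it depends on the length of the gene model. The genes without a match include Hist1h2ai, Hist1h2ak and Hist1h2an, whose models have 393 bases and stop at the stop codon. Models in the second group reach 7425 bases. The part of model length in these medians was not tested.

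The domains are those of the labels, and they were compared with T before any histone gene. T, the gene whose reporter chose the pieces, was listed at 0 in the libraries labelled anterior A and B and at 5.44 log2(FPKM + 1) in the library labelled anterior C, against 2.59 and 4.05 in posterior A and B and 0 in the library labelled posterior C. Embryo C thus went against its labels in T, while Mixl1, another streak gene, was listed at 0 in each anterior library and at 5.64, 6.99 and 4.97 posteriorly. Libraries also differed in how much they detected: the anterior libraries of embryos A, B and C had 9969, 11082 and 9335 rows above 0, and their posterior libraries 12018, 12141 and 10260. Epiblast markers had summed levels of 18.9, 49.9 and 244 FPKM anteriorly and 327, 186 and 316 FPKM posteriorly. Markers of parietal endoderm and of extraembryonic endoderm stem cells were at 1134, 1661 and 294 FPKM anteriorly and at 344, 357 and 762 FPKM posteriorly, and 3 of their 10 genes (Gata4, Sox17 and Sox7) were at 0 in anterior C. Visceral endoderm markers were at 594, 800 and 107 FPKM against 104, 165 and 71.5 FPKM, with 6 of 7 at 0 in anterior C. The part of these differences in the histone values below was not tested. The order A, B, C is kept in what follows.

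Replacement variants and cluster genes differed in how they were detected. Each library had 10 of the 11 replacement variants above 0, while of the 55 cluster genes 28, 39 and 40 were above 0 anteriorly and 49, 41 and 44 posteriorly. In the library labelled anterior A, 49.1% of cluster genes and 22.3% of all rows were at 0, and in posterior A 10.9% and 6.30%. Whole reads could be recovered from the steps between FPKM values, as the smallest whole numbers that give the same ratios, for 55 of the 62 histone genes above 0 in at least 2 libraries. The median of these smallest numbers was 61 reads over all 6 libraries together, and for 27 genes it was under 50. The true numbers can be multiples of these, so many cluster genes may rest on few reads. For Hist1h2ai, of 393 bases in GENCODE M21, 1 read was worth at most 1.83, 1.30 and 1.28 FPKM anteriorly and 0.833, 0.648 and 1.17 FPKM posteriorly. A listed 0 in anterior A thus allows a higher level than a listed 0 in posterior B.

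**Figure D1:**
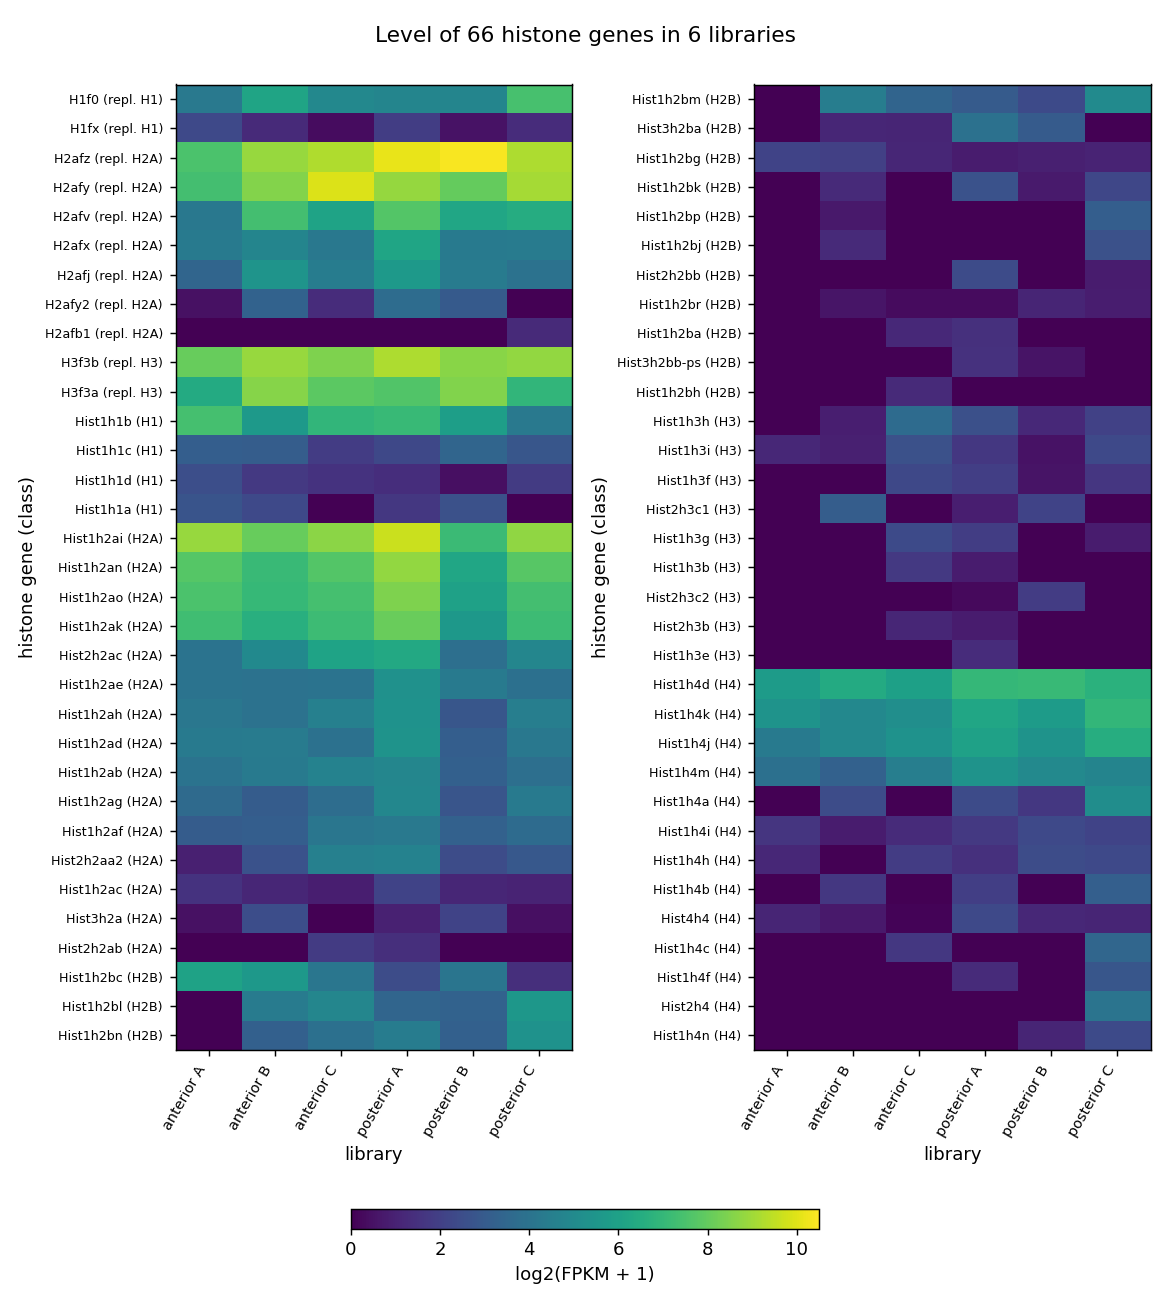
Level of each of the 66 histone genes (rows, with class in brackets and "repl." for replacement variants) in the 6 libraries (columns), coloured by log2(FPKM + 1). H2afz, H3f3b, H2afy and Hist1h2ai are high in every library, while most H2B, H3 and H4 genes are near 0.

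Summed over genes, the cluster genes amounted to 1512, 1088 and 1515 FPKM anteriorly and 2730, 805 and 1691 FPKM posteriorly. The replacement variants amounted to 766, 2010 and 2308 FPKM and to 2755, 2494 and 1995 FPKM. The ratio of replacement to cluster sums ran from 0.507 in anterior A to 3.10 in posterior B, and the ranges of the domains overlapped. The mean level of cluster genes was below that of replacement variants in all 6 libraries, by 2.40, 3.38 and 2.61 on the log2(FPKM + 1) scale anteriorly and by 2.94, 3.08 and 2.44 posteriorly. The posterior minus anterior change of this gap was -0.54, 0.30 and 0.17 in the 3 embryos, with a mean of -0.02 ± 0.45 (SD, n = 3). The mean change was smaller than its spread between embryos. The sums cover table rows only: 55 of the 70 annotated Hist genes are rows of the table, and the others were not analysed here.

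**Figure D2:**
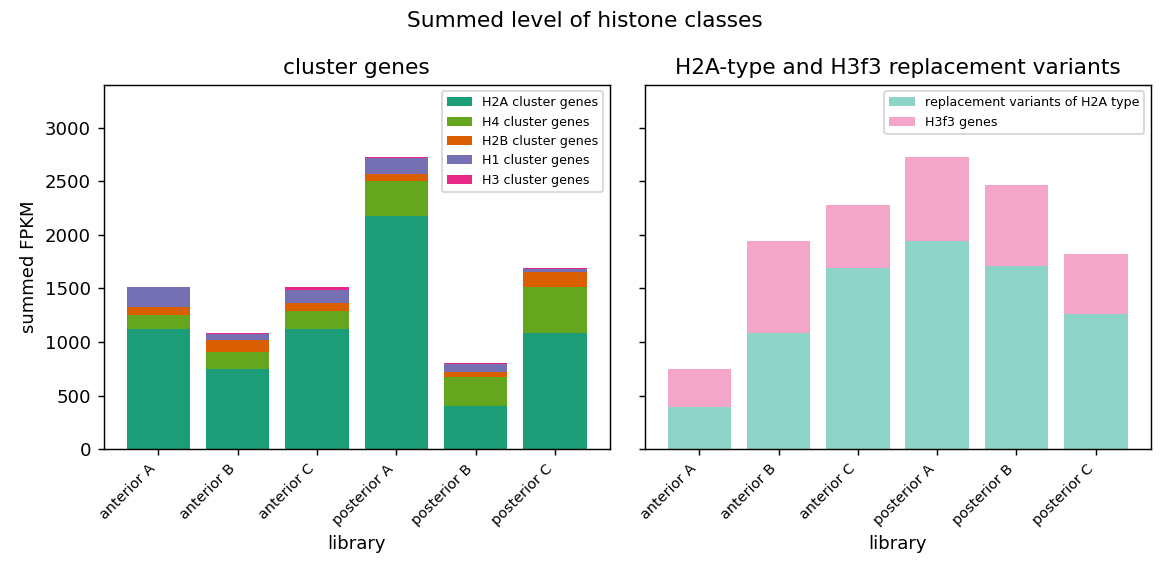
Summed FPKM per library (bars, on a linear axis from 0) of the cluster genes by class (left) and of the H2A-type and H3.3 replacement variants (right). H2A makes up most of the cluster sum in each library, and cluster H3, at most 28.6 FPKM, is barely visible beside H3.3.

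The classes were unequal. H2A genes made up 74.2%, 68.9% and 74.3% of the cluster sum anteriorly and 79.9%, 50.2% and 64.3% posteriorly. H3 was at the other end. The 9 cluster H3 genes summed to 1.23, 9.30 and 28.6 FPKM anteriorly and 16.9, 8.16 and 9.98 FPKM posteriorly, while H3f3a and H3f3b, both encoding H3.3, summed to 350, 854 and 586 FPKM and to 788, 759 and 557 FPKM. The H3.3 sum was therefore 20.5 to 284 times the cluster H3 sum, with the highest ratio in anterior A, where 1 of 9 H3 genes was above 0 (Hist1h3i, on at least 1 read). For H2A the cluster genes exceeded the H2A-type replacement variants 2.84-fold in anterior A and 1.12-fold in posterior A, and the ratio was 0.692, 0.664, 0.237 and 0.860 in anterior B, anterior C, posterior B and posterior C. Because the protocol copies polyadenylated RNA, these ratios do not compare total histone mRNA.

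Among replacement variants, H2afz was the highest on average. H2afz encodes H2A.Z, which marks the nucleosomes beside transcription start sites, and lies at chr3:137864487-137866922 on the plus strand. Its levels were 7.52, 8.87 and 9.25 log2(FPKM + 1) anteriorly and 10.16, 10.38 and 9.21 posteriorly. It was higher posteriorly in embryos A and B and level in embryo C, so that the groups overlapped. The difference over the 3 embryos was 1.37 ± 0.65 (limma estimate and standard error; unadjusted p = 0.0618, adjusted p = 0.620 with Benjamini-Hochberg adjustment over 10914 genes). The paired exact permutation test gave p = 0.50, where 3 pairs allow no value below 0.25. Without anterior A the difference was 0.86. H2afv, the second gene for H2A.Z, was at 4.21, 7.37 and 6.11 against 7.67, 6.23 and 6.49 and was higher posteriorly in 2 of 3 embryos.

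H2afy, which encodes macroH2A1, a variant with a large extra domain found on silent chromatin, was at 7.37, 8.55 and 9.94 anteriorly and 8.84, 8.02 and 9.10 posteriorly. Its highest value was in anterior C and its lowest in anterior A. H2afy2, for macroH2A2, was much lower, at 0.398, 8.88 and 1.53 FPKM against 12.1, 6.76 and 0 FPKM. Both were lower posteriorly in embryos B and C and higher in A. H2afx was at 4.31, 4.78 and 4.22 against 6.17, 4.27 and 4.35, and H2afj at 3.44, 5.43 and 4.42 against 5.69, 4.37 and 3.95, and both were highest in posterior A. H2afb1, a short testis-type H2A gene, was above 0 in posterior C only, at 1.24.

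H3f3b and H3f3a differ in sequence but encode the same H3.3 protein. H3f3b had the smallest limma standard error of the tested histone genes (0.59), with 8.05, 8.89 and 8.47 log2(FPKM + 1) anteriorly and 9.20, 8.62 and 8.78 posteriorly. H3f3a was at 6.44, 8.57 and 7.87 against 7.66, 8.52 and 6.90, below H3f3b in every library. Neither differed between domains beyond its spread (differences of 0.39 ± 0.59 and 0.07 ± 0.66; limma adjusted p = 0.862 and 0.984). Of the replacement linker histones, H1f0, which accumulates in cells that stop dividing, was at 4.25, 6.14 and 4.90 against 4.77, 4.79 and 7.45, with posterior C highest. H1fx was at 2.31, 1.27 and 0.35 against 1.89, 0.51 and 1.33. By mean level the order was H2afz (9.23), H3f3b (8.67), H2afy (8.64), H3f3a (7.66), H2afv (6.35), H1f0 (5.38), H2afx (4.68), H2afj (4.55), H2afy2 (1.97), H1fx (1.28) and H2afb1 (0.21), and each neighbouring pair overlapped over the 6 libraries.

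Among cluster genes, 4 H2A genes stood above the rest of their class. Hist1h2ai, at chr13:21716422-21716814 on the plus strand, was at 8.89, 8.05 and 8.68 log2(FPKM + 1) anteriorly and 9.66, 7.16 and 8.75 posteriorly. Those levels correspond to at least 258, 204 and 320 reads and 972, 220 and 366 reads, so this gene is among the better covered cluster genes. Hist1h2ak was at 7.27, 6.62 and 7.20 against 8.11, 5.61 and 7.19, Hist1h2an at 7.74, 7.10 and 7.69 against 8.80, 6.20 and 7.77, and Hist1h2ao at 7.52, 7.02 and 7.39 against 8.46, 6.02 and 7.37. All 4 were highest in posterior A and lowest in posterior B, with the anterior libraries between them. In FPKM, Hist1h2ai was 2.72 to 3.07 times Hist1h2ak, 1.82 to 2.22 times Hist1h2an and 2.06 to 2.61 times Hist1h2ao over the 6 libraries. Their coding sequences are 96.4% to 98.7% identical and the counting could split reads among such copies, so the level of each copy is uncertain. H2A genes outside these 4 are as close to some of them. Hist1h2ao is 99.23% identical to Hist1h2ag and to Hist1h2ad, and Hist1h2ai and Hist1h2an are 98.97% identical to Hist1h2ad. Reads could be split with those genes too, so the sum of the 4 is also uncertain.

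Of the other 11 H2A genes, 9 were highest in posterior A and 5 lowest in posterior B. The class sum of posterior A was 5.39 times that of posterior B, against 1.17 times for H4. Hist1h2ae was at 14.5 to 15.01 FPKM in the 3 anterior libraries and at 38.8, 18.8 and 13.5 FPKM posteriorly. On the log2(FPKM + 1) scale, Hist1h2ah was at 4.17, 3.98 and 4.55 against 5.34, 2.81 and 4.51, and Hist2h2ac at 3.99, 4.97 and 6.07 against 6.32, 3.82 and 4.83. The median posterior minus anterior difference of H2A genes was 1.12, -0.89 and -0.02 in embryos A, B and C, beside 0.80, 0.04 and 0 for all rows. The sign of the H2A median thus changed between embryos. The F test among embryos called no histone gene at an adjusted p under 0.05 (background 0% of tested genes; smallest p among histone genes 0.0535 and smallest adjusted p 0.996, limma) nor at an unadjusted p under 0.05 (background 2.77%). Cluster H1, the linker histones of dividing cells, was carried by Hist1h1b, at 7.41, 5.69 and 6.91 against 7.09, 5.88 and 4.26. Its lowest value was in posterior C, and its difference was -0.92 ± 0.77 (limma adjusted p = 0.739), and -0.55 without anterior A.

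H4 genes were higher in the posterior libraries on average in 13 of 13 cases, with a median difference of 1.13 on the log2(FPKM + 1) scale. Over all rows the median was 0.41 and 65.2% were higher posteriorly. By embryo, 10, 8 and 13 of the 13 were higher posteriorly, beside 66.4%, 51.3% and 49.7% of all rows. In embryo B 2 were higher anteriorly. Hist2h4 was above 0 in posterior C only, and Hist1h4c, Hist1h4f and Hist1h4n in 2 libraries each. The coding sequences of Hist1h4m and Hist1h4n are identical, and those of Hist1h4j and Hist1h4k are 98.4% identical. Reads could be split among such copies, so the level of each H4 copy is uncertain. The medians of the class were 1.21, 0.49 and 1.75 in embryos A, B and C, beside 0.80, 0.04 and 0 for all rows. Summed, H4 was at 132, 161 and 166 FPKM anteriorly and 319, 272 and 429 FPKM posteriorly, and these groups did not overlap. The H4 median was 0.83 with libraries quantile-normalized, a scaling that put the all-row median at -0.04. The class was singled out after its values were seen, and no H4 gene passed the adjusted threshold.

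Hist1h4d, at chr13:23581598-23582735 on the plus strand, was the highest H4 gene. It was at 5.78, 6.43 and 5.98 log2(FPKM + 1) anteriorly and at 6.98, 7.07 and 6.71 posteriorly, or at least 17, 38 and 28 against 87, 119 and 51 reads. Every posterior library lay above every anterior one (0.86 ± 0.65, limma adjusted p = 0.715). The paired exact permutation test gave p = 0.25, the smallest that 3 pairs allow. Hist1h4k was at 41.2, 29.2 and 35.5 FPKM against 72.2, 53.9 and 122 FPKM. On the log2(FPKM + 1) scale, Hist1h4j was at 4.32, 4.92 and 5.36 against 6.01, 5.41 and 6.53, and Hist1h4m at 3.88, 3.25 and 4.50 against 5.41, 4.95 and 4.72. None of these groups overlapped either, nor did those of Hist1h4i, and the limma differences of Hist1h4k, Hist1h4j and Hist1h4m were 1.13 ± 0.70, 1.12 ± 0.73 and 1.15 ± 0.81. Together these 5 are all the histone genes whose posterior libraries lay above the anterior ones without overlap, beside a background of 11.4% of all rows. Hist1h4a and Hist1h4f rested on few reads. Hist1h4a was at 0, 2.46 and 0 against 2.41, 1.70 and 5.15 (2.27 ± 1.23, limma adjusted p = 0.645), and Hist1h4f at 0 in all 3 anterior libraries against 1.29, 0 and 2.83, from at least 1, 0 and 3 reads.

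**Figure D3:**
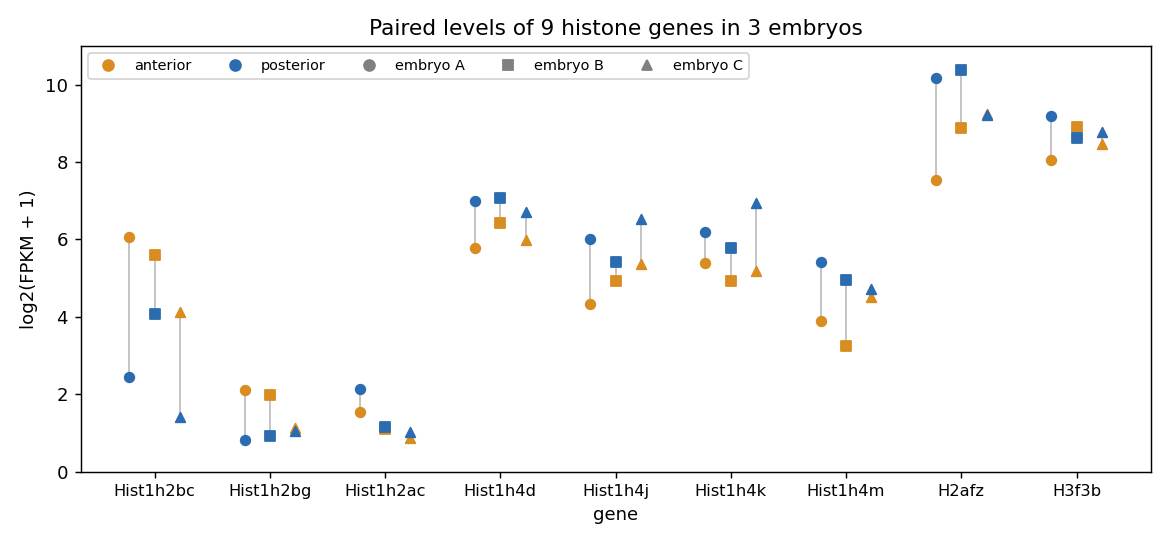
Level in log2(FPKM + 1) of 9 histone genes, with anterior (orange) and posterior (blue) values of 1 embryo joined by a line and the embryo given by the symbol. The 4 H4 genes are higher posteriorly in each embryo, Hist1h2bc is lower posteriorly in each embryo (differences of -3.62 to -1.51), and Hist1h2ac, its neighbour, is higher posteriorly by 0.03 to 0.58.

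Hist1h2bc ran the other way. This H2B gene, at chr13:23684199-23692908 on the plus strand, was at 6.06, 5.59 and 4.12 log2(FPKM + 1) anteriorly and at 2.44, 4.08 and 1.42 posteriorly, or at least 101, 102 and 36 against 15, 69 and 4 reads. It was lower posteriorly in 3 of 3 embryos and the groups did not overlap, the nearest values being anterior C and posterior B. The difference was -2.61 ± 0.88 (limma unadjusted p = 0.0148, adjusted p = 0.565), and the paired exact permutation test gave p = 0.25. It is the single histone gene with an unadjusted p under 0.05 (background 0.788% of tested genes higher anteriorly), but no longer reached it without embryo A, without embryo B or without the library labelled anterior A, with differences of -2.11, -3.16 and -2.21. The endoderm marker sums given above were likewise highest in anterior A and B. In embryo C the parietal and extraembryonic endoderm stem cell sum was lower anteriorly (294 FPKM) than posteriorly (762 FPKM), unlike Hist1h2bc. The visceral endoderm sum was 107 and 71.5 FPKM there. The part of these markers in the Hist1h2bc difference was not tested. Its annotated transcript has 2 exons and 1156 bases and, as in 7 of 14 H2B genes, holds no stem-loop. Hist1h2bg, the other gene lower posteriorly in each embryo, was at 2.11, 1.98 and 1.11 against 0.81, 0.91 and 1.05, from at least 18 reads in all 6 libraries together.

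Some other H2B genes were at 0 in anterior A and above 0 elsewhere. Hist1h2bl was at 0, 4.35 and 4.83 against 3.43, 3.32 and 5.56, Hist1h2bn at 0, 3.22 and 3.88 against 4.42, 3.22 and 5.36, and Hist1h2bm at 0, 4.45 and 3.40 against 3.02, 2.37 and 5.01. In that library 2 of 14 H2B genes were above 0, against 9 to 11 in the others. The limma difference of Hist1h2bn was 1.97 ± 1.08 (adjusted p = 0.646), and 0.79 without anterior A. Cluster H3 genes were higher posteriorly in 9 of 9 cases in embryo A, 3 of 9 in embryo B and 0 of 9 in embryo C, beside 66.4%, 51.3% and 49.7% of all rows. In embryo B 2 of them were higher anteriorly and in embryo C 6. Hist1h3h, the highest of them, was at 0, 0.89 and 3.68 against 2.57, 1.19 and 2.03.

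Counted over all histone genes, limma called 0 of 54 tested at an adjusted p under 0.05, where the background was also 0% of 10914 genes. At an unadjusted p under 0.05, 0 were higher in the posterior libraries (background 7.24%) and 1, Hist1h2bc, in the anterior ones (background 0.788%). Of all 66, 9 were higher posteriorly in 3 of 3 embryos (background 19.7%) and 2 anteriorly (background 7.41%), and 2 had anterior libraries above all posterior ones (background 3.39%). Of the 9, 7 were H4 genes. As shares, all posterior counts lie below the background, and the anterior counts are 1 or 2 genes. The filter on a mean of 1 FPKM kept 44 of 55 cluster genes and 10 of 11 replacement variants. In the whole class, 38 of 55 cluster genes (69.1%) and 10 of 11 replacement variants (90.9%) were higher posteriorly on average, beside 65.2% of all rows, with median differences of 0.44, 0.41 and 0.41. Embryo A carried these medians: they were 1.06, 0 and 0.07 for cluster genes and 1.47, -0.50 and 0.13 for replacement variants in embryos A, B and C. Without embryo A they were 0.04 for cluster genes, -0.19 for replacement variants and 0.17 for all rows. No histone gene was at 0 in all libraries of 1 domain and above 0 in all of the other.

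**Figure D4:**
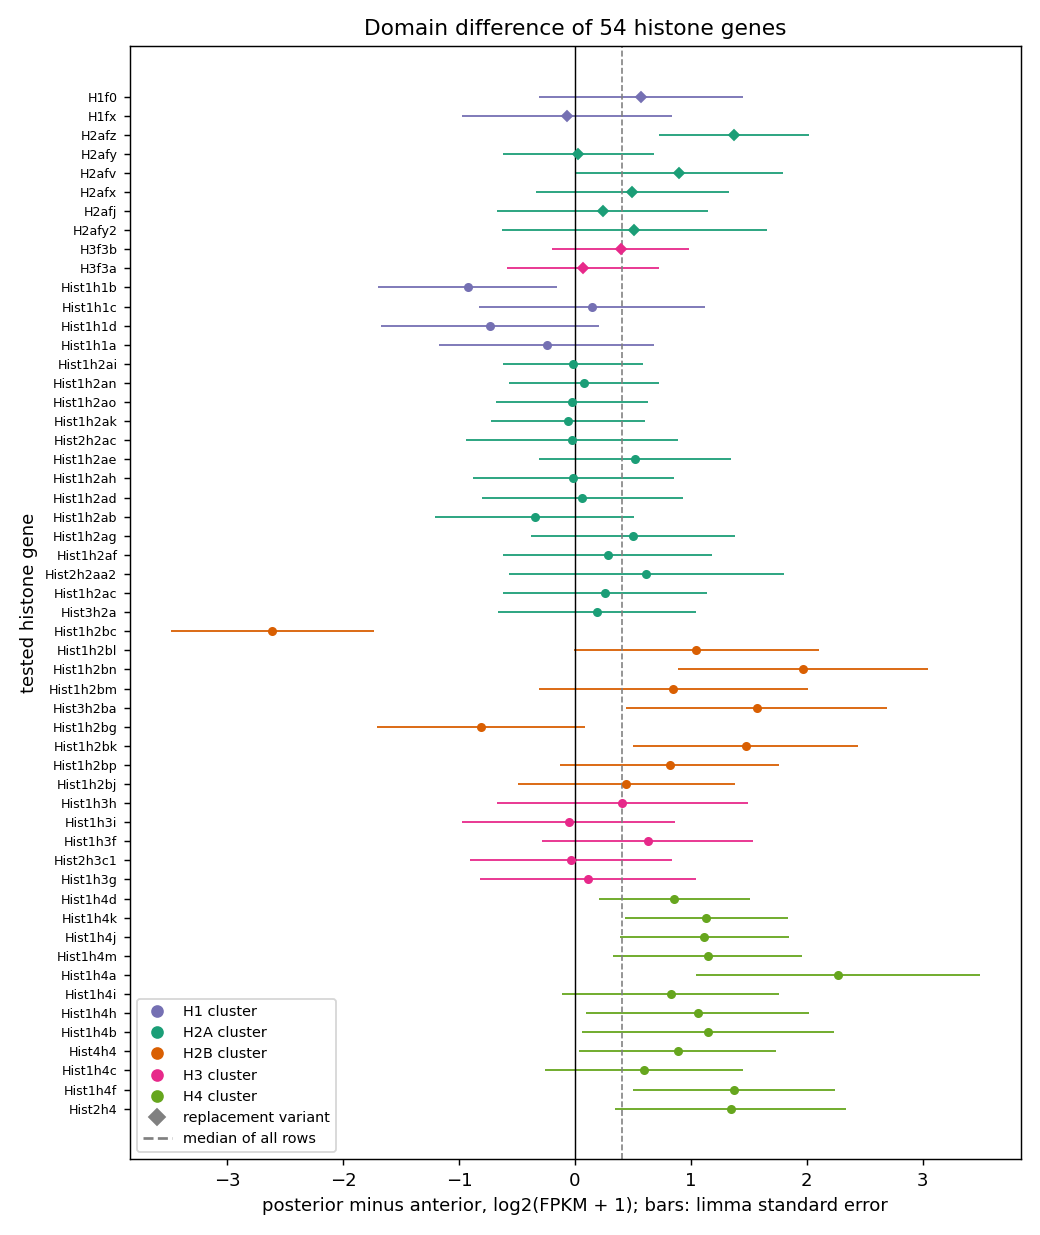
Posterior minus anterior difference in log2(FPKM + 1) of the 54 tested histone genes, ordered by kind, class and mean level, with limma standard errors as bars. The dashed line is the median of all rows (0.41), H4 genes lie to its right, and Hist1h2bc stands alone at -2.61.

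Many H2A and H2B genes lie head to head and share the sequence between their starts. In GENCODE M21, 8 such pairs of table rows lie 172 to 301 bases apart, and 1 of them, Hist3h2a with Hist3h2bb-ps, has a processed pseudogene as its H2B member, which is also counted among the 55 cluster genes. The promoter windows below are the 150 bases before the RefSeq transcript start (GRCm38.p6), 5′ to 3′ on the gene's own strand, with the CCAAT box, the TATA box (searched as TATAAA) and the octamer (ATTTGCAT) in capitals on either strand. They show the H2A gene beside Hist1h2bc, the highest H2A gene, the highest H4 gene and the highest replacement variant.
Hist1h2ac, chr13:23683960-23684109, minus strand, between Hist1h2ac and Hist1h2bc: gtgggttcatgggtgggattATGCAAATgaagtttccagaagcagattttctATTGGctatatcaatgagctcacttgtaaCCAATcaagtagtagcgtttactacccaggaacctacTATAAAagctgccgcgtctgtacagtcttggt
Hist1h2ai, chr13:21716262-21716411, plus strand, between Hist1h2bl and Hist1h2ai: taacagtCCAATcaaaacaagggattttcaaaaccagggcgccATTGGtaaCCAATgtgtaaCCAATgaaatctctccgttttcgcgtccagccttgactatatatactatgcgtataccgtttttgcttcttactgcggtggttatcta
Hist1h4d, chr13:23581418-23581567, plus strand: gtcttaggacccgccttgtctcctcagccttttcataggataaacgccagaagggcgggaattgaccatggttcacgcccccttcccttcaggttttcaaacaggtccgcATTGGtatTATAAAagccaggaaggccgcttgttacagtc
H2afz, chr3:137864337-137864486, plus strand: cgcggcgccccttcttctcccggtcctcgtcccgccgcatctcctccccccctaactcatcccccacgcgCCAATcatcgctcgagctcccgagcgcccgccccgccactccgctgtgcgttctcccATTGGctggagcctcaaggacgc
The window of Hist1h2ac holds all 3 motifs and that of Hist1h2ai repeats CCAAT without the octamer. Over 250 bases before the start, CCAAT was present in 15 of 15 H2A and 12 of 12 H2B promoters but 3 of 12 H4 promoters, against 33.8% of all promoters in the table used. It was also present in 3 of 3 cluster H1, 6 of 8 cluster H3 and 4 of 4 replacement variant promoters. The octamer was present in 6 of 15 H2A and 5 of 12 H2B promoters and in no other cluster class, against 1.60% of all promoters. TATAAA was found in 46% of cluster promoters and 12.4% of all. These are matches of letters in a window and not binding sites.

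Levels within a pair were far from equal. The H2A gene was the higher one in 40 of 48 pair and library values and the H2B gene in 7, and H2A was above 0 in 47 of them and H2B in 32. Without the pair that holds the pseudogene, H2A was higher in 36 of 42 values and H2B in 6. Hist1h2ac was at 1.55, 1.11 and 0.87 anteriorly and 2.13, 1.14 and 1.03 posteriorly, below its partner Hist1h2bc in all 6. It was higher posteriorly in each embryo while Hist1h2bc was lower. FPKM divides by gene length, and the GENCODE M21 transcripts of Hist1h2ac and Hist1h2bc have 2482 and 1156 bases. In the smallest read numbers the order was not the same in all libraries. Hist1h2ac had at least 13, 11 and 8 reads anteriorly and 50, 23 and 11 posteriorly. Hist1h2bc had at least 101, 102 and 36 against 15, 69 and 4. By these numbers Hist1h2ac was the higher one in posterior A and C, though the true numbers can be multiples. Hist1h2ai exceeded its partner Hist1h2bl in all 6 libraries, with 8.89 against 0 in anterior A and 8.75 against 5.56 in posterior C.

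**Figure D5:**
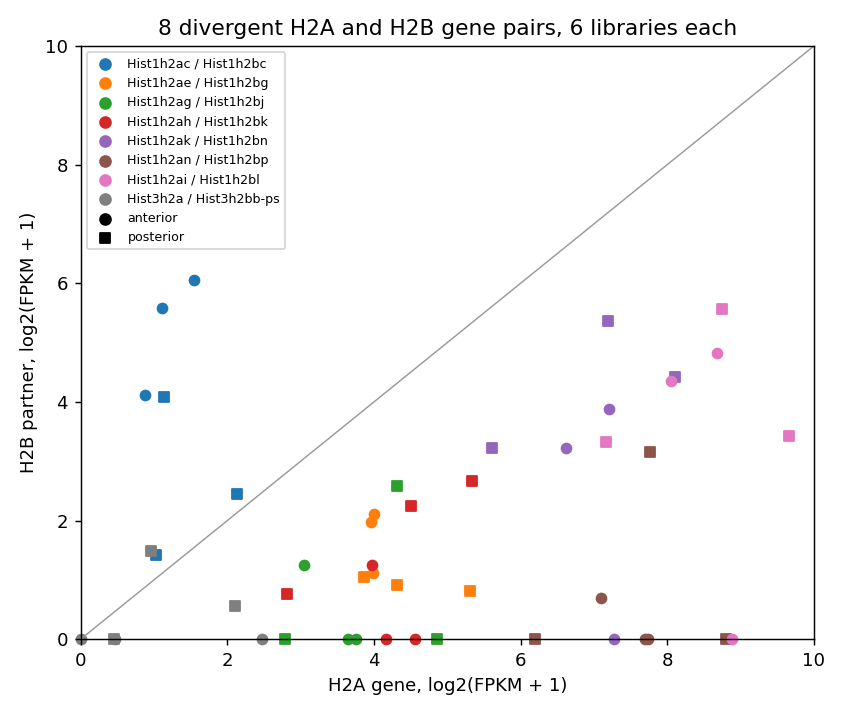
Level in log2(FPKM + 1) of the H2A gene (x axis) against its H2B partner (y axis) in 8 divergent pairs, with circles for anterior and squares for posterior libraries and the grey line for equality. Hist1h2ac and Hist1h2bc lie above the line in all 6 libraries, and H2A is higher in 40 of the 48 values.

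Genes that make, process and place histones were described from 4 lists. No list gene passed the adjusted threshold (background 0%). In the S phase list, of replication and nucleotide synthesis genes, 34 of 39 were higher posteriorly on average with a median difference of 1.19, and the medians were 1.88, 0.61 and 0.74 in embryos A, B and C. At an unadjusted p under 0.05, 8 of 39 were higher in the posterior libraries (background 7.24%) and 1, Prim1, in the anterior ones (background 0.788%). The smallest p-values were those of Rpa3, of the single-strand DNA binding complex (3.10 ± 0.88; limma adjusted p = 0.521), Slbp (2.30 ± 0.78), and Gins4 (2.88 ± 1.01) and Gins2 (2.91 ± 1.05) of the replicative helicase. Without the library labelled anterior C the differences of Rpa3 and Gins2 were 1.75 and 1.45. The H4 medians and the S phase medians were both above those of all rows in all 3 embryos, as were those of the epiblast and streak markers. The medians of H2A were so in embryo A alone. Those of the other cluster classes were 1.47, -0.25 and 0.63 for H2B, 0.89, 0 and -0.62 for H3, and -0.93, 0.24 and 0.14 for H1.

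Slbp, whose protein binds the histone stem-loop and which also belongs to S phase, was at 4.04, 6.54 and 2.06 log2(FPKM + 1) anteriorly and 6.33, 7.64 and 5.57 posteriorly. It was higher posteriorly in 3 of 3 embryos, though anterior B exceeded posterior A and C (limma unadjusted p = 0.0154, adjusted p = 0.566). Without the library labelled anterior C, its lowest, the difference was 1.22. Among all 20 histone mRNA processing genes in the table, 13 were higher posteriorly and 7 anteriorly with a median of 0.37, and 1 of 18 tested, Slbp, had an unadjusted p under 0.05 (background 7.24%), beside 65.2% of all rows higher posteriorly and a median of 0.41. Npat, the activator of cluster transcription, was at 38.9, 15.8 and 30.2 FPKM against 9.13, 8.84 and 21.1 FPKM and so lower posteriorly in each embryo (-1.08 ± 0.83, adjusted p = 0.717). Ncbp2, of the cap-binding complex, differed by 2.02 ± 0.91, Eri1, an exonuclease that trims histone mRNA ends, by 1.60 ± 1.06, and Cstf2t, a cleavage factor, by 1.56 ± 0.97. Without the library labelled anterior A these 3 differences were 0.77, 0.86 and 0.50.

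Of 16 genes that deposit replication-dependent histones, 11 were higher posteriorly with a median of 0.51. Mcm2, a helicase subunit that also binds H3 and H4, was at 3.24, 5.25 and 2.82 against 6.12, 5.70 and 5.92 without overlap (2.14 ± 0.85; limma unadjusted p = 0.0310, adjusted p = 0.608). Chaf1a, the large CAF-1 subunit, differed by -0.67 ± 0.80, Nasp, an H3 and H4 chaperone, by 0.56 ± 0.75, Rbbp4, another CAF-1 subunit, by 0.79 ± 0.77, Nap1l4, an H2A and H2B chaperone, by -0.81 ± 0.73 and the importin Ipo4 by 1.48 ± 1.04, or by 1.00 without anterior A and 0.96 without anterior C. Of 20 genes for replacement histones, 15 were higher posteriorly with a median of 0.47. The H3.3 chaperones Hira and Daxx differed by -0.01 ± 0.94 and 0.40 ± 0.92. Anp32e, which removes H2A.Z, differed by 1.22 ± 0.85, Kat5, of the complex that exchanges H2A, by 1.06 ± 0.88, and Oip5, a centromere loading factor, by 1.86 ± 1.12. Without the library labelled anterior A these 3 differences were 0.32, 0.28 and 0.14. Cenpa, the centromeric H3 variant, whose name falls outside the rule for the 66 genes, was at 5.71, 5.82 and 5.43 against 8.62, 7.75 and 8.50. Its difference was the largest on this list and its groups did not overlap (2.64 ± 0.64; limma unadjusted p = 0.00236, adjusted p = 0.520).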

How the data were processed

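Per the labels' protocols, Smart-seq2 libraries were preamplified for 18 cycles, and HTSeq-count was used on reads mapped to Ensembl 38.77. TopHat2 2.0.4, Cufflinks 2.0.2 and mm10 stand in the submitters' processing notes, and which tool gave these values is not stated there. The authors deposited log2(FPKM + 1) values: raising 2 to a value and subtracting 1 gave at most 6 significant digits in 99.1% to 99.5% of entries above 3. Each row exceeds 1 FPKM in some library. The test had been planned for FPKM on that scale, so the values were used unchanged.

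The 10914 of 12826 rows whose mean reached 1 FPKM were fitted with limma 3.58.1 in R 4.3.3, with embryo as a block (both pieces are of 1 individual) and a mean-variance trend (2 residual and 7.5 prior degrees of freedom), two-sided, with Benjamini-Hochberg adjustment at 0.05. Deviations of paired libraries correlated at -0.07, 0.04 and -0.03. The fit was run on simulated data with less spread than the tested histone genes have and no values held at 0. That run does not show which differences could be found here. Limma p-values rest on the spread left in these 6 libraries after embryo and domain are fitted, drawn towards a trend over all tested genes. Read depth is known only relatively, at 1, 1.41 and 1.42 for anterior and 2.18, 2.82 and 1.56 for posterior libraries A, B and C.

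Members and lists were chosen with earlier results of these data known. Named genes were all replacement variants, the 12 highest cluster genes, the 6 cluster genes with the smallest p, the 4 list genes with the smallest p per list, Slbp, Npat, Hira, Daxx, Chaf1a, Nasp and T; others were named after their values were seen. Alternatives were the block, left-out libraries, pseudocount, filter, scaling and merged copies. Stem-loops came from GENCODE M21 and promoters from RefSeq, which matched 54 of 66 genes.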

Additional observations from a re-analysis of the deposited data

How the results depend on the processing

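No histone gene passed the adjusted threshold under any alternative, and the smallest adjusted p of any named gene was 0.277. Without the embryo as a replicate block, 1 histone gene, H2afz, was higher posteriorly at an unadjusted p under 0.05, as it was without anterior C alone (1). Leaving out each embryo gave 0 to 1 posterior genes, 0 to 1 anterior genes and 0 to 3 genes among embryos, and leaving out anterior A without the block gave 0 anterior genes. Among embryos the unadjusted count was 2 with a pseudocount of 0.1, 2 with no filter, 2 after quantile normalization and 1 after centring. The H4 median became 1.775 with a pseudocount of 0.1 and was 0.83 after quantile normalization. Quantile normalization moved the median of all rows to -0.04 and that of cluster genes to -0.02. The pseudocount, under which 0 values weigh more, moved the cluster minus replacement difference to 0.40. Without H2afx the replacement median was 0.40, and with near-identical copies merged the cluster median was 0.44. The cause of these shifts was not tested.

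Of 47 named genes 29 kept their sign throughout, and 50 of 514 recomputed values changed it. Quantile normalization reversed H2afj (-0.1393), H2afy (-0.3275), H2afy2 (-0.03483), H3f3a (-0.2408), Hist1h2an (-0.2927) and Daxx (-0.06349), centring on the library median H2afj (-0.07644), H2afy (-0.2839), H3f3a (-0.245) and Hist1h2an (-0.237), and a pseudocount of 0.1 H1fx (0.01327) and Hira (0.03175). Leaving out each embryo in turn reversed H1f0 (-0.4196 to 1.535), H1fx (-0.5903 to 0.2803), H2afj (-0.7718 to 0.8923), H2afv (-0.3829 to 1.922), H2afx (-0.1868 to 0.9965), H2afy (-0.6877 to 0.4663), H2afy2 (-0.8443 to 1.441), H3f3a (-0.5069 to 0.5864), Hist1h2ah (-0.6041 to 0.5643), Hist1h2ai (-0.4114 to 0.4214), Hist1h2ak (-0.5065 to 0.4141), Hist1h2an (-0.4138 to 0.5667), Hist1h2ao (-0.5095 to 0.4639), Hist2h2ac (-1.196 to 0.5915), Nasp (-0.3298 to 1.301), Hira (-0.4174 to 0.3083) and T (-1.426 to 3.321), given as ranges. Leaving out the library labelled anterior A, without the block, reversed H1fx (0.4342), H2afj (-0.2594), H2afy (-0.593), H2afy2 (-0.09874), H3f3a (-0.5235), Hist1h2ai (0.1574), Hist1h2ak (0.06183), Hist1h2ao (0.08001), Nasp (-0.2964) and T (-0.5074). Leaving out the library labelled anterior C, an alternative chosen after seeing the data, reversed Hist1h2ah (0.1478), Hist1h2ai (0.05543), Hist1h2ak (0.02481), Hist1h2ao (0.01671), Hist2h2ac (0.5104) and Hira (0.4963).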
